A study of Mus musculus with 3 samples.

Results

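ATRX ChIP-seq peaks were examined at 9 mouse genes of the teneurin, latrophilin and FLRT adhesion system: Tenm1, Tenm2, Tenm3, Tenm4, Adgrl1, Adgrl2, Adgrl3, Flrt2 and Flrt3. They are 9 of 21887 protein-coding genes in the annotation, and were chosen by gene family with earlier results of these data known. Every peak overlapping the annotated gene or the 5 kb on either side of it was counted. This gave 267 of the 112153 control peaks and 294 of the 105674 MICAL1-FL peaks, over 5.39 Mb.

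The study compared cultured primary neurons of C57BL6/J mouse embryos, taken at E15.5-17.5 of gestation. All cultures received lentivirus on day 5 in vitro, and the neurons used for ChIP were at day 14 in vitro. The control neurons carried mCherry, a red fluorescent protein, and the other neurons carried MICAL1-FL, as the label names it. No source used here gives the promoter that drove either insert. Each condition had a single ChIP library. Differences between them therefore have no replicate check and no p-value, and all intervals are 95% intervals that cover counting error only. An input sample of control neurons was not analysed here. Peak identifiers in the MICAL1-FL list begin with TBC_M2, which is not the name in the sample title; the title was followed. The cultures were bulk samples, so ATRX bound in more of the cells cannot be told apart from more ATRX bound per cell. A peak list carries no expression values, and the labelled cell type could therefore not be set against its markers.

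Teneurins are large transmembrane proteins that reach across the synaptic cleft and bind latrophilins, a family of adhesion G protein-coupled receptors. FLRT proteins carry leucine-rich repeats, bind latrophilins as well, and are also ligands of the UNC5 guidance receptors. In the mouse hippocampus these molecules help to set which neurons connect. ATRX is a chromatin remodeller that, with DAXX, deposits the histone variant H3.3, and it is known for its binding to repeats, heterochromatin and GC-rich DNA able to form G-quadruplexes.

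Peaks lay on the promoters of some of these genes, and the upstream sequences of 4 of them are printed to show the base composition of 3 starts under a peak and of 1 that is not. Each is the 250 bases before an annotated start, from RefSeq on GRCm38.p6, written 5′ to 3′ on the strand of the gene, with each CG dinucleotide in capitals. The window at this Adgrl3 start, which lies 1.49 kb inside the annotated gene, was under a peak in both lists. That of Adgrl1 was under a control peak, and that of Tenm4, at its second start 40.4 kb inside the gene, under a MICAL1-FL peak. Flrt3 had neither. The regions are chr5:81020321-81020570 (plus strand) for Adgrl3, chr8:83899848-83900097 (plus) for Adgrl1, chr7:96211421-96211670 (plus) for Tenm4 and chr2:140671477-140671726 (minus) for Flrt3.
Adgrl3: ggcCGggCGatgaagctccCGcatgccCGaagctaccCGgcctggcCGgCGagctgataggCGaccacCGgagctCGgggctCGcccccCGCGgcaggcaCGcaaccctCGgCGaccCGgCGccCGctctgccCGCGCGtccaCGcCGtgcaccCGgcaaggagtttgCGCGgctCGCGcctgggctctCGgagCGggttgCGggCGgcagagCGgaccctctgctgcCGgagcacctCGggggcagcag
Adgrl1: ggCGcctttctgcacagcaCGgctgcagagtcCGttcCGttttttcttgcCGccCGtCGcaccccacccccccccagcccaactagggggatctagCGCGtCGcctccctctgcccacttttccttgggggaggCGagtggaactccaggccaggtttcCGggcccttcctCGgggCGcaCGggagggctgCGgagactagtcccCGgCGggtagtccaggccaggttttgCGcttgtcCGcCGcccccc
Tenm4: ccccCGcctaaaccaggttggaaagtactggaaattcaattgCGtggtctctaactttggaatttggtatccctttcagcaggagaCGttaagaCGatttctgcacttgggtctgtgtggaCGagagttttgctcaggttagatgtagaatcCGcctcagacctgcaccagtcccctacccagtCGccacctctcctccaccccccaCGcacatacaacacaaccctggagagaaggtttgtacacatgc
Flrt3: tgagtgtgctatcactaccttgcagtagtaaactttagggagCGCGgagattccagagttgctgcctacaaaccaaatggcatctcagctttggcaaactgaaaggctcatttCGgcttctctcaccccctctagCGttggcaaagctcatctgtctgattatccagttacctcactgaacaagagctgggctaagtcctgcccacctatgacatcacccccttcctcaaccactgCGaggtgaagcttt
The Adgrl3 sequence holds 36 CG dinucleotides and is 76.8% G or C. That of Adgrl1 holds 21 and is 68.8% G or C. The other two are less rich and close to each other, although a peak covers only the first: Tenm4 has 8 CG dinucleotides and 51.6% G or C, and Flrt3 has 5 and 50%.

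All 9 genes had at least 1 peak in each list, where the share of protein-coding genes with a peak was 64% for the control and 61.2% for MICAL1-FL. Long genes rarely lacked one, and 6 of the 9 are at least 100 kb long. Of 2313 autosomal genes of at least 100 kb, 22 had no control peak and 21 had no MICAL1-FL peak. Together the 9 genes held 49.5 peaks per Mb in the control (43.8 to 55.9) and 54.6 in MICAL1-FL neurons (48.5 to 61.2). All protein-coding genes held 45.9 and 42.5 per Mb, and the 2429 of at least 100 kb held 49.8 and 47.3. These values pool the autosomes with the sparsely covered X chromosome, where Tenm1 lies. The 8 autosomal members held 58.3 (51.4 to 65.8) and 63.6 (56.5 to 71.5) per Mb. Autosomal genes of at least 100 kb held 51.9 and 49.3. The ratio of MICAL1-FL to control peaks was 1.10 for the 9 genes (0.930 to 1.304) and 0.927 for all protein-coding genes. On the log2 scale the ratio of the 9 genes lay 0.25 above that of all genes (0.005 to 0.49). This interval barely leaves out 0. It included 0 under 9 of 17 alternatives, among them without Tenm1, Tenm2, Tenm3 or Adgrl3, relative to genes of at least 100 kb, and with at least 6 fragments at the summit. Without Tenm2 the difference was 0.14 (-0.15 to 0.42). Genes of at least 500 kb, which is the size of 5 of the members, had a ratio of 1.01 (0.985 to 1.04), and against them the difference was 0.12 (-0.13 to 0.36).

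**Figure D1:**
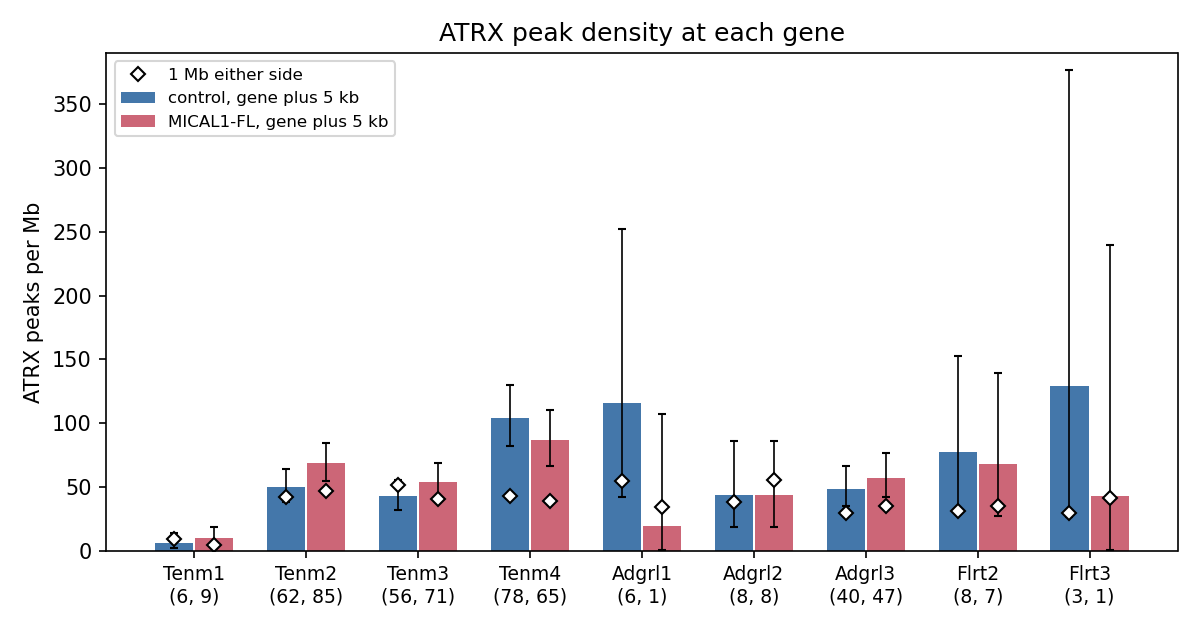
ATRX peaks per Mb at each gene with 5 kb on either side (bars, with exact Poisson 95% intervals), with numbers of control and MICAL1-FL peaks under each name; diamonds give summits per Mb in the 1 Mb on either side. Tenm4 stood above its surroundings in both lists, Tenm1 was low in both, and the bars of Adgrl1 and Flrt3 rest on at most 6 peaks.

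Among the teneurins, Tenm4 was the most densely covered. It held 78 control peaks, or 104 per Mb (82.2 to 130), and 65 MICAL1-FL peaks, or 86.7 per Mb (66.9 to 110). The 1 Mb on either side of it held 43.0 and 39.0 per Mb, so the gene lay above its surroundings in both lists, as did 7 of the 9 members in each list taken alone. Among autosomal genes of at least 100 kb its density ranked at percentile 93.5 in the control and 92.3 in MICAL1-FL neurons. Its ratio was 0.833 (0.590 to 1.17), an interval that includes the ratio of all genes.

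Tenm2 held 62 control and 85 MICAL1-FL peaks, which is 49.98 (38.3 to 64.1) and 68.5 (54.7 to 84.7) per Mb. Its ratio of 1.37 (0.977 to 1.93) was 0.56 above that of all genes on the log2 scale (0.08 to 1.06). Tenm2 was the only one of the 9 genes whose interval left out the ratio of all genes, and against genes of at least 500 kb the interval was -0.05 to 0.93. Tenm3, which guides matching connections in the mouse hippocampus and visual system, held 56 and 71 peaks, or 42.8 and 54.3 per Mb, with a ratio of 1.27 (0.881 to 1.83). Its surroundings held 51.5 and 41.0 per Mb. Over the 1 Mb on either side of all 9 genes the lists held 36.7 and 37.1 summits per Mb, a ratio of 1.01 (0.908 to 1.13).

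Tenm1 is the X-linked teneurin and was sparsely covered, with 6 control and 9 MICAL1-FL peaks over 901 kb. That is 6.58 (2.42 to 14.3) and 9.88 (4.52 to 18.7) per Mb. The 114 X-linked genes of at least 100 kb held 8.93 and 7.23 per Mb, and these were low as well. Of its 6 control peaks, 5 were only 4 fragments deep, against 1 of its 9 MICAL1-FL peaks. Its ratio of 1.5 had an interval from 0.477 to 5.12.

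Of the latrophilins, Adgrl3 was covered by 40 peaks in the control, or 48.9 per Mb, and by 47 in MICAL1-FL neurons, or 57.4 per Mb, and its ratio was 1.18 (0.754 to 1.84). Adgrl2 held 8 in each list. Adgrl1, the shortest latrophilin gene at 41.9 kb, held 6 control peaks and 1 MICAL1-FL peak. With so few peaks its ratio of 0.167 ran from 0.004 to 1.37, and a difference was not detectable at this depth. The Flrt genes were as thinly sampled, with 8 control and 7 MICAL1-FL peaks at Flrt2 and 3 and 1 at Flrt3. Flrt3 lies within the span of Macrod2, so its peaks are also peaks of that gene.

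The counts that follow used only genes with at least 10 peaks in both lists together, which left 7 members. Tenm1 alone lay more than 1.5 times above the ratio of all genes, where 20.7% of 2602 genes did. More than 1.5 times below lay 0 members and 19.5% of genes. Among genes of at least 100 kb the shares were 19.3% above and 16% below. An interval wholly above the ratio of all genes was found for 1 member, Tenm2, and for 2.34% of genes. An interval wholly below was found for 0 members and for 1.27% of genes. Among genes of at least 100 kb these shares were 2.83% and 1.23%. The median difference was 0.34 on the log2 scale for the 7 members and -0.0046 for all genes tested.

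**Figure D2:**
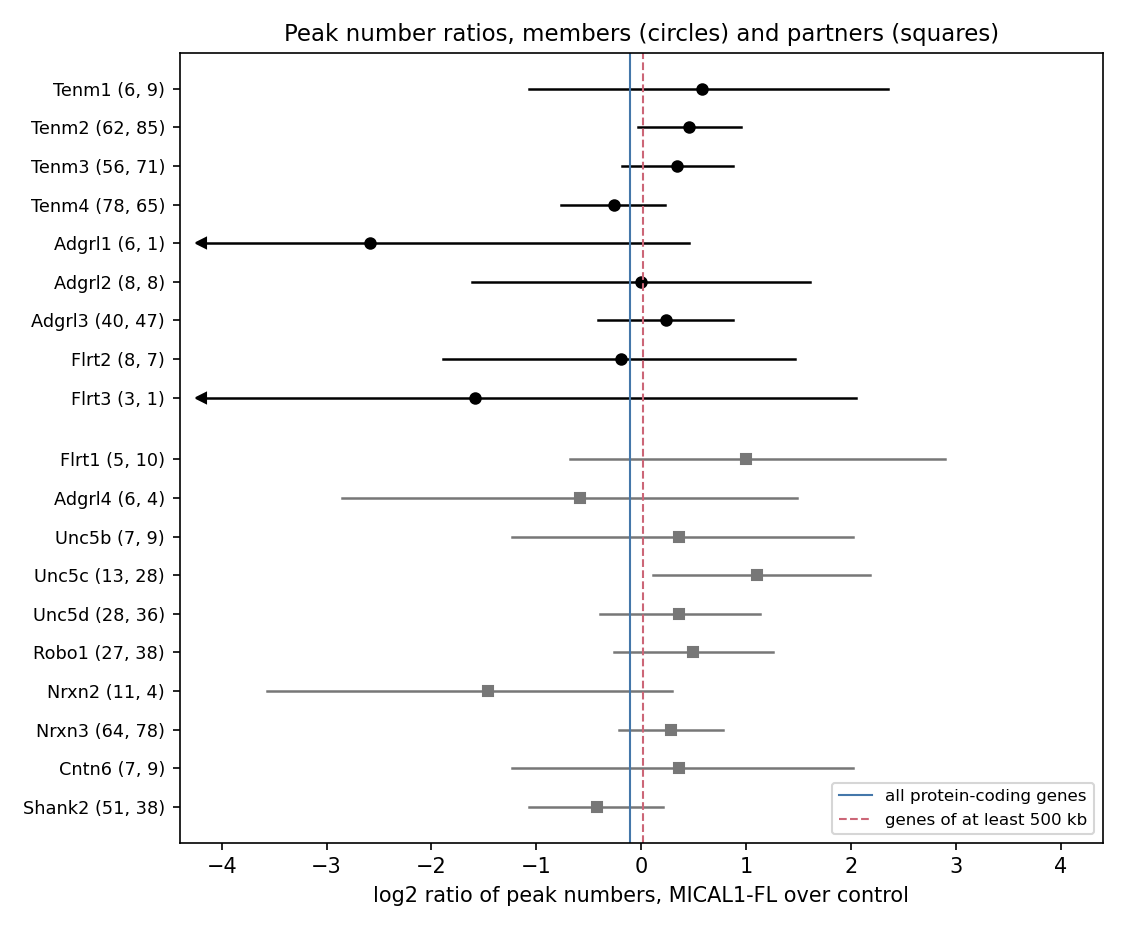
Log2 of the MICAL1-FL to control peak number for the 9 genes (circles) and related genes with at least 10 peaks (squares), with exact 95% intervals for counting error, peak numbers in brackets, and lines at the ratio of all protein-coding genes and of genes of at least 500 kb. Among the circles only the interval of Tenm2 clears the line of all genes, and those of Adgrl1 and Flrt3 run off the axis.

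The peaks themselves were shallow. Depth is the number of fragments stacked at a summit, inferred from the authors' fold over background and p-value. The median was 5 fragments in both lists, and 53.9% of the control and 57.5% of the MICAL1-FL peaks of these genes were at most 5 deep, against 55.6% and 59.0% over all protein-coding genes. None of the 267 control peaks (upper limit 1.37%) and none of the 294 MICAL1-FL peaks (upper limit 1.25%) had a q-value below 0.05, which 0.411% and 0.316% of peaks in protein-coding genes had. By depth, the genes held 52 control and 45 MICAL1-FL peaks of 4 fragments, 92 and 124 of 5, 77 and 81 of 6, 32 and 31 of 7, and 14 and 13 of at least 8. The ratio at 5 fragments was 1.35 (1.02 to 1.78), against 0.957 over all protein-coding genes. This class is 1 of 5 and was not set beforehand. Over all protein-coding genes the ratios at 4, 6, 7 and at least 8 fragments were 1.04, 0.897, 0.812 and 0.763. The members' intervals at these depths included both 1 and the ratio of all genes. The lowest q-values were 0.099 in the control, at Adgrl3, and 0.105 in MICAL1-FL neurons, at Tenm2.

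**Figure D3:**
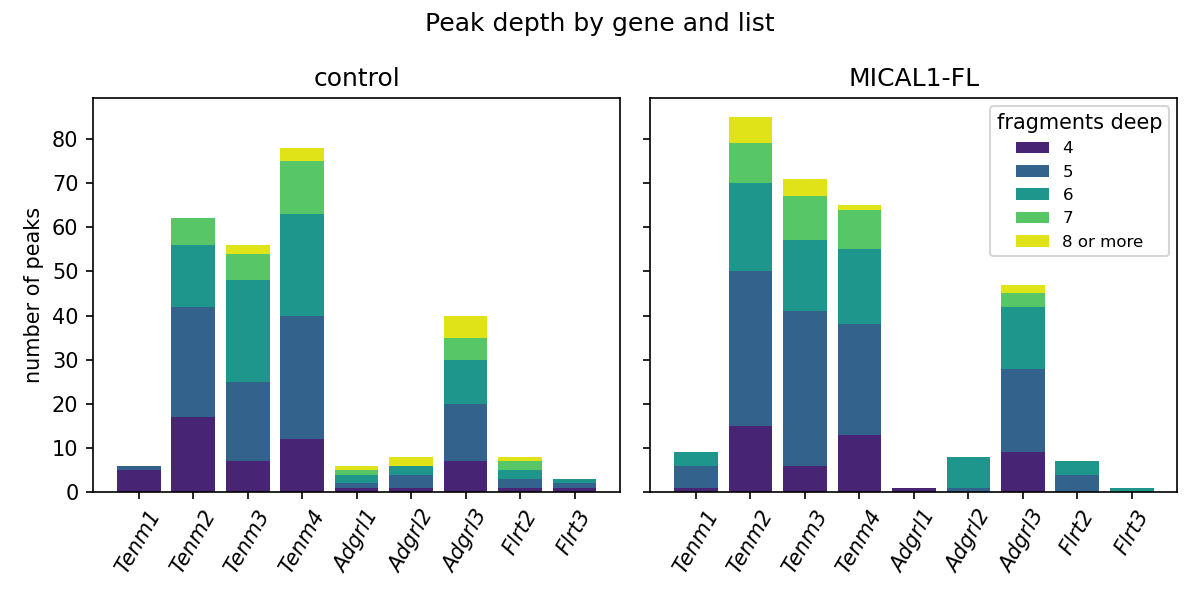
Number of peaks at each gene (bar height) split by depth in fragments at the summit (colours), control on the left and MICAL1-FL on the right. Most peaks of either list are 4 to 6 deep. Peaks of 8 or more occur at Tenm2 only in the MICAL1-FL list, and at Adgrl1, Adgrl2 and Flrt2 only in the control.

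The best control peak of all 9 genes was chr5:81020264-81021246 in Adgrl3, with a fold of 3.86 over background and 10 fragments. Its summit lay 1.34 kb inside the annotated gene. The best MICAL1-FL peak was chr11:36395363-36396432 in Tenm2, with a fold of 3.77 and 10 fragments. At Tenm2 the lists differed in their deep peaks as well as in number, since 0 control and 6 MICAL1-FL peaks were at least 8 deep, where 6.34% and 5.22% of peaks in protein-coding genes were. This feature was chosen after its values were seen. The reverse was found at Adgrl1, Adgrl2 and Flrt2, with 1, 2 and 1 control peaks that deep and 0 MICAL1-FL peaks. In Tenm2, 20 control and 35 MICAL1-FL peaks had at least 6 fragments, a log2 difference from all genes of 1.03 (0.20 to 1.903). The best control peaks of Tenm2 were 7 deep, with a fold of 3.05.

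Tenm3 had its best control peak at chr8:48275645-48276202, 8 deep with a fold of 3.33, and its best MICAL1-FL peak at chr8:48872473-48872785, 9 deep with a fold of 3.82. For Tenm4 they were chr7:96682439-96682738 in the control, 8 deep with a fold of 3.43, and chr7:96210617-96211119 in MICAL1-FL neurons, 9 deep with a fold of 3.54. Flrt2 had a control peak 9 deep with a fold of 3.81 at chr12:95729514-95729896. Its best MICAL1-FL peak, chr12:95699899-95700167, was 6 deep with a fold of 2.68. The best Adgrl1 peak, chr8:83916845-83918009, was a control peak 8 deep, and the sole MICAL1-FL peak there was 4 deep. The best control peak of Tenm1, chrX:43093068-43093333, was 5 deep, and 3 of its MICAL1-FL peaks tied as best at 6 deep. At Adgrl2 the best control peak, chr3:148988719-148989286, was 8 deep, and 5 MICAL1-FL peaks tied as best at 6 deep. For Flrt3 the best peaks were chr2:140659624-140660190 in the control and chr2:140668681-140669235 in MICAL1-FL neurons, each 6 deep. At Adgrl3 the strongest control peak overlapped chr5:81019437-81020592, one of 3 MICAL1-FL peaks tied at the highest -log10 p, each 7 deep. The MICAL1-FL peaks chr5:81021640-81021895 and chr5:81417425-81417913 of this gene were 8 deep but had a lower -log10 p.

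Few peaks were found in both lists. An overlap of at least 1 base with the other list was found for 20 of the 267 control peaks, or 7.49% (4.64 to 11.3), against 8.06% over protein-coding genes. Of the 294 MICAL1-FL peaks, 21 did, or 7.14% (4.48 to 10.7), against 8.69%. Tenm4 held 10 of these in either list, which is 12.8% of its control (6.32 to 22.3) and 15.4% of its MICAL1-FL peaks (7.63 to 26.5). Tenm2 and Tenm3 held 2 each, Adgrl3 held 4 control and 5 MICAL1-FL peaks, Flrt2 held 2, and the other 4 genes held 0. Tenm4 was also more densely covered than all protein-coding genes, at 104 and 86.7 peaks per Mb against 45.9 and 42.5. Whether genes as dense as Tenm4 share as many peaks was not tested.

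In 12 of the 21 overlapping pairs the summits were within 250 bp. A summit that near in the other list was found for 13 peaks of each list, where 5.12% of control and 5.52% of MICAL1-FL peaks in protein-coding genes had one, and 8 of the 13 were in Tenm4. The pair at chr7:96473900-96474282 in Tenm4 had summits 25 bp apart and depths of 7 in the control and 5 in MICAL1-FL neurons. Another in Tenm4, at chr7:96838406-96838689, had depths of 8 and 7 and summits 93 bp apart. A further one, at chr7:96210622-96211292, was 5 deep in the control and 9 deep in MICAL1-FL neurons with summits 43 bp apart, 39.5 kb into the gene. The other such pairs in Tenm4 lay at chr7:96211877-96212136, chr7:96280365-96280650, chr7:96406581-96406921 and chr7:96737564-96737885. The control peak chr7:96267653-96267926, also in Tenm4, had a MICAL1-FL summit within 250 bp although the peaks did not overlap. In Adgrl3 the pair at chr5:81627521-81628335 was 8 and 5 deep with summits 21 bp apart. A second pair in Adgrl3, at chr5:81085255-81085580, was 5 and 4 deep with summits 233 bp apart. Tenm2 and Tenm3 had 1 such pair each, 124 and 55 bp apart, and that of Flrt2 was 201 bp apart.

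Along the gene, the control peaks leaned towards the 3′ end. When each gene was cut into 3 equal parts from start to end, the 259 control summits inside the members fell 80, 74 and 105, so that 40.5% (34.5 to 46.8) lay in the last part. Over genes of at least 100 kb it was 31.2%. The share planned beforehand as the main value was that of the first part. It was 30.9% (25.3 to 36.9) in the control, an interval that includes the 35.7% of those genes. In MICAL1-FL neurons the share in the first part was 35.8% (30.3 to 41.6), against 35.5%. The 293 MICAL1-FL summits fell 105, 87 and 101, with 34.5% in the last part against 31.8%. Tenm2 and Tenm3 carried the lean towards the last part in the control, with 30 of 61 and 29 of 55 summits there. Tenm4 had 23 of 77. In the last of 10 equal parts lay 13.5% of the control and 12.3% of the MICAL1-FL summits of the members, against 9.08% and 9.37% for genes of at least 100 kb. Part 8 of 10 held 13.5% of the members' control summits as well. For the teneurins alone the last part held 16.6% and 13.1%, and part 2 held 13.1% of their MICAL1-FL summits too. No intervals were formed for these 10 parts.

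Tenm2 had a stretch of 145 kb with no control summit, from 38.5 to 184 kb after its start, and its longest such stretch in MICAL1-FL neurons was 54.3 kb. Tenm1 had none for 504 kb in MICAL1-FL neurons. Among the teneurins, Tenm4 had its summits closest together, with a median spacing of 6.55 kb in the control and 8.95 kb in MICAL1-FL neurons, against 13.7 and 10.3 kb in Tenm2.

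**Figure D4:**
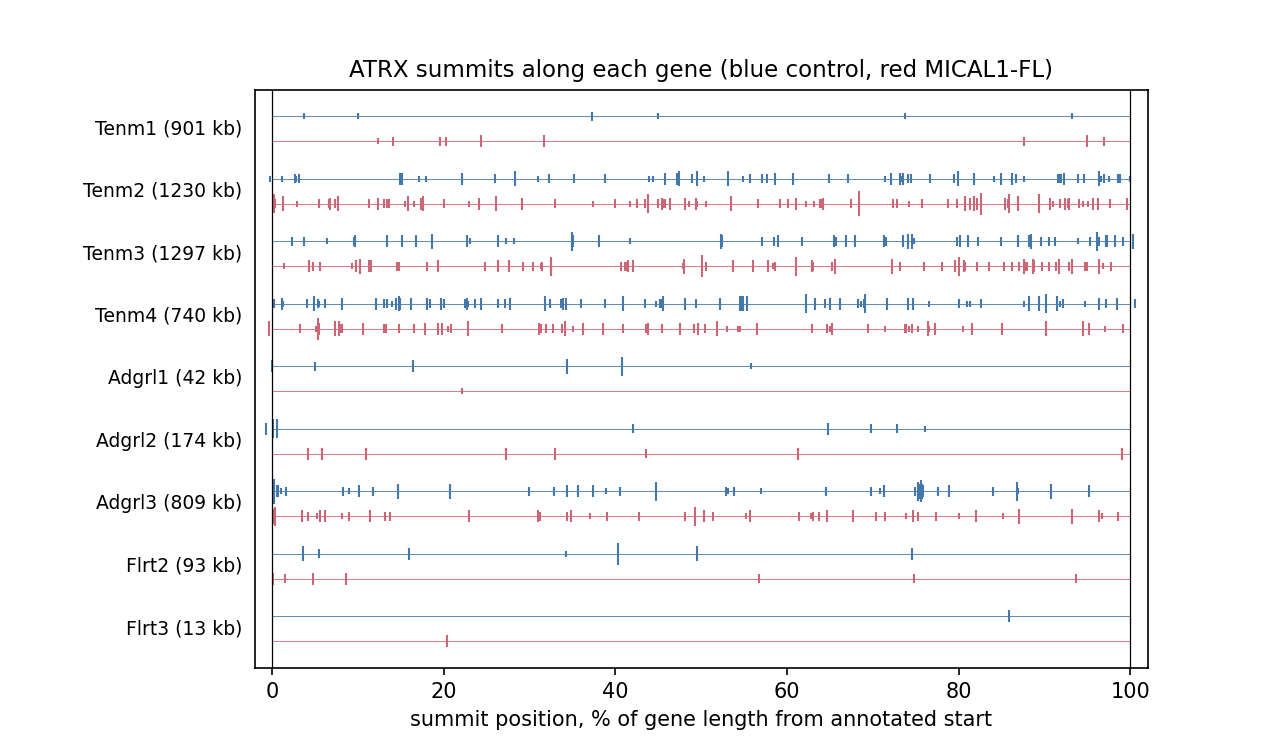
Summits along each gene, as a percentage of gene length from its annotated start (control above, MICAL1-FL below); taller ticks are deeper peaks, and flanking summits outside the frame are not drawn. Tenm2 has a gap in control summits after its start, and Adgrl3 has a tight group of control summits near 75% of its length.

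Summits lay near the starts of few members, and 9 genes are too few to tell their frequency from either share given below. A control summit lay within 1 kb of the start of 2 genes, Adgrl1 and Adgrl2, where 23.2% of all genes had one and 40.6% of those of at least 100 kb did. A MICAL1-FL summit lay as near the start of 2 other genes, Adgrl3 and Flrt2, where 22.6% and 39.2% did. Of the 6 members of at least 100 kb, only Adgrl2 had such a summit in the control and only Adgrl3 in MICAL1-FL neurons. The Adgrl1 peak was 6 deep with its summit 22 bp before the start, and that of Adgrl2 was 8 deep, 0.21 kb into the gene. The Flrt2 peak was 6 deep and that of Adgrl3 was 7 deep. No member had such a summit in both lists, although a control summit of 10 fragments lay 1.34 kb into Adgrl3. At the gene end, Tenm2 had a control summit within 1 kb, 4 deep, where 8.48% of all genes and 8.68% of those of at least 100 kb had one. MICAL1-FL summits lay there in 0 members, and in 7.39% and 7.61%.

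**Figure D5:**
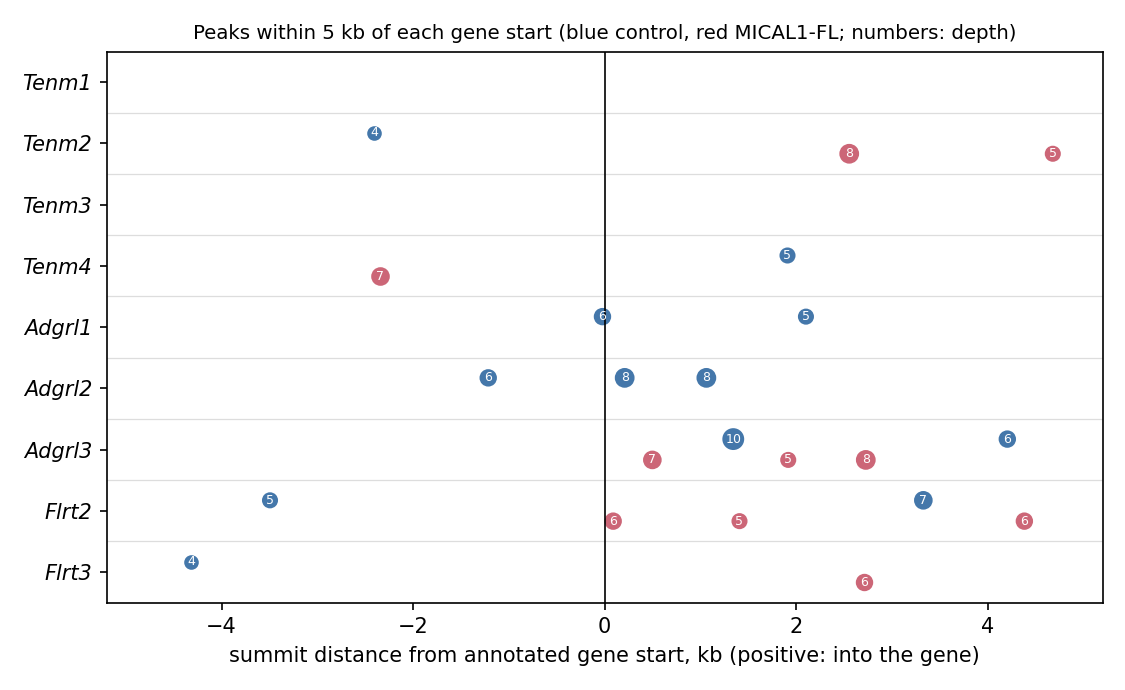
Summits within 5 kb of the annotated start of each gene, by distance in kb (positive into the gene), with depth in fragments as the number in each point. Adgrl3 has summits of both lists in the first 5 kb, and Tenm1 and Tenm3 have none.

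RefSeq gave 12 promoter windows for the 9 genes, each with 250 bases before and 50 after a start. A control peak overlapped 3 of them, where 10.3% of 21263 windows had one, and a MICAL1-FL peak overlapped 5, where 10.6% did. Those of Tenm1, Tenm2, Tenm3 and Adgrl2 had none, and these windows lie 34.5 to 848 kb inside the gene and not at its outermost start, from which the distances to gene starts were measured. The 3 windows of Adgrl3 lie 1.49 to 2.51 kb inside. A control peak covers 2 of them, although no control summit lies within 1 kb of the outermost start. By an observed to expected CpG ratio of at least 0.6 and a G or C share of at least 50%, 5 windows were CpG-rich: 3 neighbouring ones of Adgrl3 and those of Adgrl1 and Flrt2. Each had a peak in at least 1 list, against 28.3% of the 9600 CpG-rich windows, of which 15.6% had a control and 17.1% a MICAL1-FL peak. Of the other 7, only the second Tenm4 window did, against 10.5%. The 3 Adgrl3 windows lie close together, and some share peaks, so they are not separate observations.

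Tenm4 also hosts Mir708, a microRNA gene, and its mature sequences are shown because a peak covers them. Their seeds, bases 2 to 8, are in capitals, and the sequences are from RefSeq.
mmu-miR-708-5p: aAGGAGCUuacaaucuagcuggg
mmu-miR-708-3p: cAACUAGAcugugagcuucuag
They lie at chr7:96249450-96249472 and chr7:96249496-96249517. The MICAL1-FL peak chr7:96249335-96249635, 6 deep with a fold of 2.68, covers both, and 0 control peaks overlap them. Mir6394, another microRNA gene in Tenm4, was overlapped by 0 peaks of either list. How often microRNA genes lie under a peak was not tested.

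In Adgrl3, 6 control peaks lay within 8.46 kb, at chr5:81625018-81633480, with depths of 5 to 9 and folds of 2.29 to 3.81. The MICAL1-FL list had 1 peak there, 5 deep. At least 6 control summits in some 10 kb were found in 1.34% of autosomal genes of at least 100 kb, and as many MICAL1-FL summits in 0.865%. The other members held at most 4 in any such window in either list. Of the 6 peaks, 5 overlap the annotated pseudogene Gm46946; how reads mapped there was not tested.

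Other genes of the same adhesion system were listed by name: the related Flrt1 and Adgrl4, UNC5 and Robo receptors, neurexins, and binding partners or scaffolds. Of the 15 reported, 10 had at least 10 peaks in both lists together. Flrt1, Unc5c and Robo1 lay more than 1.5 times above the ratio of all genes, and Nrxn2 more than 1.5 times below, which is 3 and 1 of the 10 where 20.7% and 19.5% of all genes did so. Unc5c, a receptor for netrin, held 13 control and 28 MICAL1-FL peaks. Its ratio of 2.15 (1.08 to 4.53) was the only one of the 10 with an interval wholly above the ratio of all genes, as 2.34% of genes had, and 0 lay wholly below. Most peaks were found at Nrxn3, a presynaptic adhesion molecule, with 64 in the control and 78 in MICAL1-FL neurons. Shank2, a scaffold of the postsynaptic density, held 51 and 38, and Robo1, a guidance receptor for Slit proteins, held 27 and 38. As some related genes are not reported, these counts do not describe the whole system. Every ratio here sets the same 2 libraries against each other, so these genes do not give separate replication of the values at the members.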

How the data were processed

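ATRX ChIP-seq was deposited as 1 peak list per condition. The authors prepared chromatin with an enzymatic kit, per the labels' protocols, and sequenced paired ends with input DNA as background. The submitters' processing notes name MACS 1.4.2, ChIPseeker 1.26.2, Bowtie 1.3.0 and SAMtools 1.9 without saying what each did. The build and calling threshold are not given in the sources used; chromosome names and extents fit GRCm38. The deposited score of a peak is its -log10 p times 10, rounded down. The deposited fold is a ratio over background, and the deposited -log10 p and q-values are the authors' too.

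Peaks were counted in RefSeq gene spans (GRCm38.p6) with 5 kb on either side, and the strand came from RefSeq promoters. Counts have exact Poisson intervals, shares Clopper-Pearson intervals, and ratios exact conditional binomial intervals, all at 95%. With 1 library per condition there was no test. Read totals are not in the lists, so sequencing depth is unknown. Summit depth was inferred from the fold as pileup plus 1 over background plus 1 and from a Poisson p, solved within 0.001 of -log10 p for 100% of the members' peaks. This step was tested on simulated data.

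Named were all 9 genes, the peak of highest -log10 p per gene and list, and peaks with summits within 250 bp of one in the other list. Also named were peaks within 1 kb of a gene end, and related genes past 1.5 times or with the most peaks. Peaks tied for the highest -log10 p were not all given with coordinates. Some of the related genes are not reported here. The members and lists were chosen with earlier results of these data known. Surroundings, promoter windows, CpG content, tight groups, Mir708 and the references of at least 100 and 500 kb were chosen after the data were examined. So was the emphasis on the last part of each gene. Python 3.11.15, numpy 2.4.6, pandas 2.3.3, scipy 1.17.1 and matplotlib 3.10.9 were used.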

Additional observations from a re-analysis of the deposited data

How the results depend on the processing

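The density of the 9 genes moved to 33.4 control and 39.9 MICAL1-FL peaks per Mb with a -log10 p of at least 2, to 22.8 and 23.2 with at least 6 fragments, and to 0 and 0 with a q-value below 0.05, where no ratio could be formed. The shared share of control and MICAL1-FL peaks was 1.87% and 1.70% when at least 50% of both peaks had to overlap (3.30% and 3.56% over all genes), and 19.1% and 16.0% when a gap of 1 kb was allowed (19.5% and 21.0%). By summits within 250 bp it was 4.87% and 4.42%. Within 3 kb, 6 genes had a peak at a start or end in each list, or 66.7%. The shares were 44.0% and 42.2% over all protein-coding genes, and 63.3% and 62.0% over those of at least 100 kb. The log2 difference of Flrt3, -1.48, turned to 0.11 without flanks and to 0.23 with at least 6 fragments. The members' log2 difference ranged from 0.12 (relative to genes of at least 500 kb) to 0.39 (without Tenm4). Its interval included 0 under 9 of 17 alternatives: 20 kb flanks, at least 6 fragments, all autosomal peaks or genes of at least 100 or 500 kb as the reference, and without Tenm1, Tenm2, Tenm3 or Adgrl3. Tenm1 had 1 control and 8 MICAL1-FL peaks at a -log10 p of at least 2. The cause of these changes was not tested. No paired analysis was possible because there was 1 library per condition, and for the same reason no replicate could be left out. Shallow peaks limit what can be seen at the short genes.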
